A study of Mus musculus with 7 samples.

Results

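The resistant metastasis is a single RNA-seq library, 1 of 7 in the series, and was set against the 3 primary tumors that had grown under the same antibody, with the 3 control tumors as background. The genes described are the 19002 of 53465 that reached 10 estimated counts in at least 1 of the 7 libraries. All tumors came from EMT6, a mouse mammary carcinoma line, of which 500000 cells were implanted into the mammary fat pad of female BALB/c mice aged 6 to 8 weeks. EMT6-P tumors received an isotype control IgG, and EMT6-PTR tumors (αPD-L1 treatment-resistant, written PDR in the labels) received an antibody against PD-L1. Both antibodies were given at 250 μg per mouse every 3 days from day 1 until the institutional endpoint. The metastasis is labelled as a resistant metastasis under αPD-L1. Its label gives neither the organ it was taken from nor whether its host also carried 1 of the EMT6-PTR primary tumors, and its source is given as breast tumor tissue, as for the primary tumors. With 1 library on the metastasis side no test was possible, and every difference below is a description of that library.

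PD-L1 is a ligand on tumor and immune cells that restrains T cells through the receptor PD-1. A metastasis taken whole contains tumor cells together with vessels, leukocytes and parenchyma of the organ in which it grew, and a bulk library sums the RNA of all of them. In the lung, type 1 alveolar cells form the gas exchange surface, type 2 alveolar cells make surfactant, and club and ciliated cells line the airways.

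The metastasis library held 24592782 estimated counts, the EMT6-PTR libraries 21433396, 20430110 and 25213472 (replicates 1, 2 and 3), and the EMT6-P libraries 20476480, 21936692 and 20624015. At this depth a gene without a read in the metastasis could still have been present at up to 0.118 CPM (counts relative to library size after upper-quartile scaling), which is the value of 3 counts and covers counting error only. The metastasis had 17313 genes with 10 or more counts, against 15402 to 16179 in EMT6-PTR and 15309 to 15583 in EMT6-P. Of the measured genes, 1122 reached 10 counts in the metastasis alone, compared with 373, 209 and 141 in EMT6-PTR replicates 3, 1 and 2 alone. Across the 19002 genes, log2 CPM in the metastasis correlated with EMT6-PTR replicates 1, 2 and 3 at Pearson r of 0.853, 0.875 and 0.891. The corresponding values were 0.908 to 0.947 among EMT6-PTR tumors and 0.981 to 0.986 among EMT6-P tumors. These correlations are across genes, which are not independent replicates.

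2 of the EMT6-PTR libraries stood apart from the others. In replicate 2, CT010467.1, a gene at an rRNA repeat locus on chromosome 17, took 13.85% of all counts, against at most 1.35% for the leading gene of any EMT6-P library. Replicate 3 had the highest value of the 4 αPD-L1 libraries for 5602 genes, close to the 5673 for which the metastasis was highest, whereas replicates 1 and 2 were highest for 4326 and 3401. Replicate 3 therefore set many of the limits against which the metastasis was read. Where leaving out 1 EMT6-PTR library moved the count of a described list by more than 1.5 times and by at least 2 genes, the count without it is given beside the list.

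A gene was counted as above the EMT6-PTR range when its level in the metastasis was at least 2-fold over the highest of the 3 EMT6-PTR tumors, and as below the range when it was at least 2-fold under the lowest. By this rule 2194 of 19002 genes (11.5%) were above and 388 (2.04%) were below. Without EMT6-PTR replicate 3, the numbers were 3333 above and 1583 below. They were 2498 and 543 without replicate 1, and 2498 and 534 without replicate 2. List counts given below with a library left out are to be read beside these numbers. Against the range of all 6 primary tumors, 2037 genes (10.7%) were above and 242 (1.27%) were below. The genes above the EMT6-PTR range included 1847 protein-coding genes and 241 without a count in any EMT6-PTR tumor, and 350 were at least 16-fold above the range. Among the genes below it, 227 were protein-coding, 74 had no count in the metastasis, and 15 were at least 16-fold below. The median difference from the EMT6-PTR mean was 2.86 on the log2 scale for genes above the range, -1.86 for genes below it and 0.04 for all genes.

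Genes of the lung epithelium had the largest differences. Scgb1a1 (ENSMUSG00000024653.2, GRCm38 chr19:9083636-9087958), which encodes the main secretory protein of club cells, had no count in any EMT6-PTR tumor and 75235 counts, or 2961 CPM, in the metastasis. Its level was at least 21430-fold higher than the value of 3 counts per EMT6-PTR library, taken as the mean over the 3 libraries. It had 22 counts in EMT6-P replicate 1 and none in the other EMT6-P tumors. Per kilobase of exon, Scgb1a1 was the gene with rank 4 in the whole metastasis library. Sftpc (chr14:70520949-70524081), the surfactant protein made by type 2 alveolar cells, was likewise at 0 in the 3 EMT6-PTR tumors and at 2312 CPM in the metastasis, with rank 16 per kilobase.

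The other surfactant genes followed the same pattern. Sftpb was at 0, 0 and 0.195 CPM in EMT6-PTR replicates 1 to 3 and at 1143 CPM in the metastasis. Sftpa1 and Sftpd had no count in EMT6-PTR and reached 794 and 532 CPM in the metastasis. All 9 genes of a list of type 2 alveolar markers were above the range, with a median difference of 12.06 on the log2 scale. Of these, Sftpc, Sftpb, Sftpa1, Sftpd and Slc34a2 passed the count minimum only through the metastasis. Both of the 2 with 10 counts in every library were above. The list's summed level was 24.1, 22.3 and 25.1 CPM in EMT6-PTR, 15.98 to 17.16 CPM in EMT6-P and 6031 CPM in the metastasis, where Sftpc had the highest CPM. Besides the surfactant genes the list held Slc34a2, a phosphate transporter of these cells, at 0 in all 6 primary tumors and 386 CPM in the metastasis, and Abca3, a surfactant lipid transporter, at 19.5, 16.9 and 12.7 CPM in EMT6-PTR and 129 CPM in the metastasis. In bulk tissue, fewer cells of a type and less RNA per cell cannot be told apart, and this holds for every list below.

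The stretches upstream of 2 surfactant genes are shown because these genes are among the largest differences and carry a short motif. Scgb1a1 and Sftpc, with larger differences, had no upstream sequence in the set searched. Upper-case letters mark CTCAAG, the core bound by NKX2-1, a lung and thyroid transcription factor, which was searched on both strands of 300-base windows from RefSeq (GRCm38.p6, 250 bases before to 50 bases after the transcription start). The sequences end at the base before the start and are written on the strand of the gene, chr14:41131588-41131787 (+) for Sftpa1 and chr6:72304480-72304609 (+) for Sftpb.
Sftpa1: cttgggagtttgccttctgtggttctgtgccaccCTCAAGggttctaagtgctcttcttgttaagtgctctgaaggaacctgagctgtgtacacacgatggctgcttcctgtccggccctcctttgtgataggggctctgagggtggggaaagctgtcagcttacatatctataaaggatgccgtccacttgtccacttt
Sftpb: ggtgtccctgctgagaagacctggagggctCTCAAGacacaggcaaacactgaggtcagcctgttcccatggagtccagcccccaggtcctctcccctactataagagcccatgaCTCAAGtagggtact
Of the 21 measured genes on the type 2, type 1 and club cell lists, 14 had a window and 5 of these (35.7%) held the motif, against 18.0% of all 27025 genes with a window. A match is a string of letters and not a shown binding site. Nkx2-1 itself, chosen after its values were seen, had no count in any of the 6 primary tumors and was at 26.1 CPM in the metastasis.

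Markers of type 1 alveolar cells were above the range for 6 of 7 genes (85.7%, against 11.5% of all genes). Of these, Cldn18 passed the count minimum only through the metastasis. The list's summed level was 127, 190 and 132 CPM in EMT6-PTR against 1650 CPM in the metastasis. Ager, a receptor abundant on type 1 cells, had the highest CPM of the list, at 3.12, 26.1 and 12.0 in EMT6-PTR and 745 in the metastasis. Pdpn, a membrane glycoprotein of type 1 cells that is also found on fibroblasts and lymphatic vessels, was the exception, at 59.8, 75.2 and 39.2 CPM in EMT6-PTR and 121 CPM in the metastasis. All 5 measured club cell genes of 6 listed were above the range, with Bpifa1 under the count minimum. Scgb3a2 and Scgb3a1 passed that minimum only through the metastasis. The club cell list's summed level was 4.68, 22.5 and 24.4 CPM in EMT6-PTR and 3679 CPM in the metastasis. All 7 ciliated cell genes were above the range at a lower level, with sums of 9.23, 5.75 and 8.11 CPM in EMT6-PTR and 84.6 CPM in the metastasis. Dynlrb2 and Rsph1 among them passed the minimum only through the metastasis. Foxj1, the transcription factor of motile cilia, was at 4.29, 1.005 and 1.403 CPM in EMT6-PTR and 13.8 CPM in the metastasis.

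**Figure D1:**
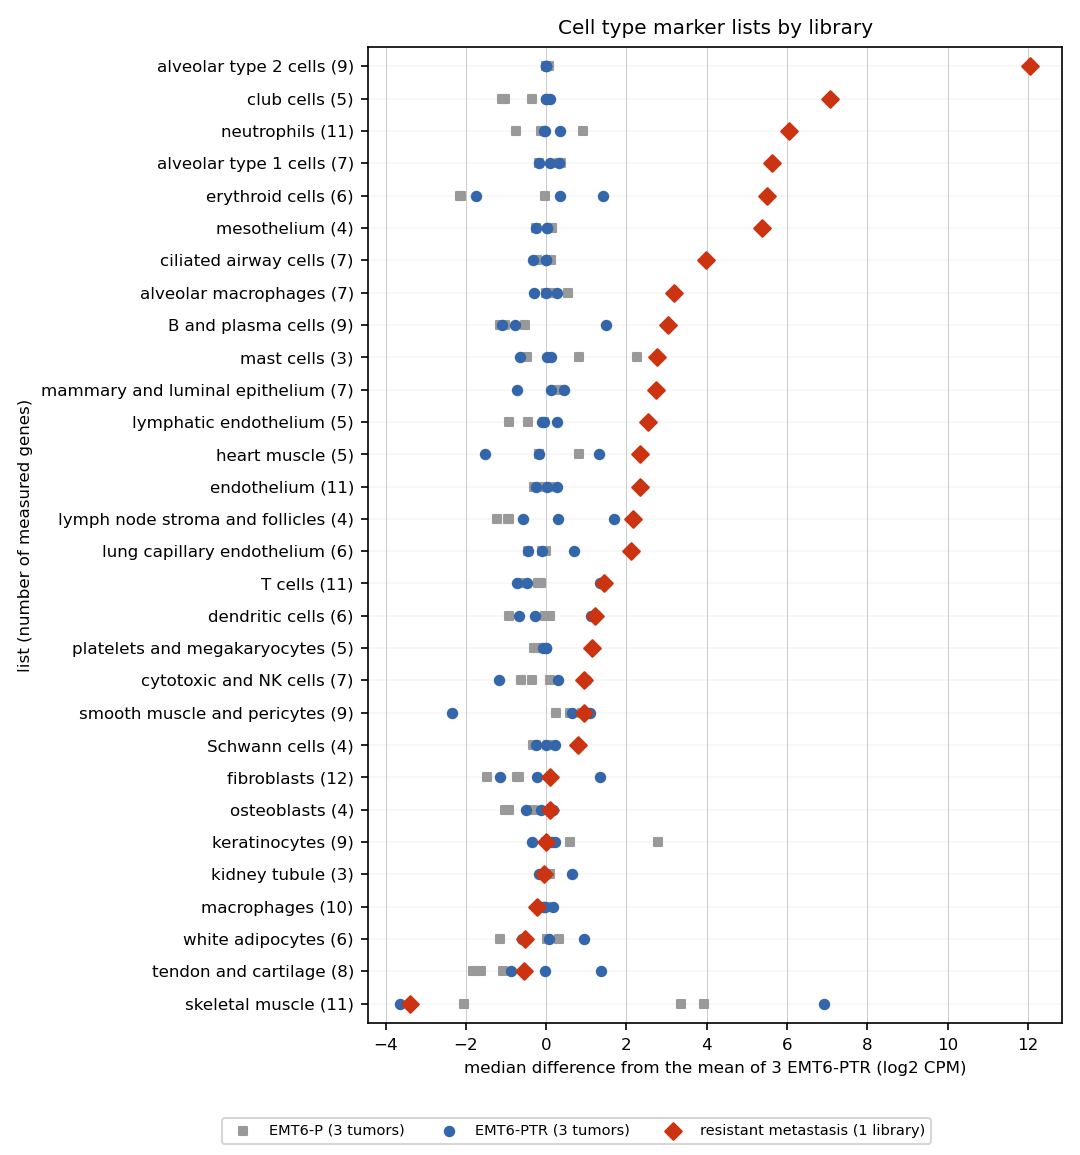
Median over the measured genes of each cell type list of log2 CPM minus the mean of the 3 EMT6-PTR tumors, with 1 point per library (gray squares, EMT6-P; blue circles, EMT6-PTR; red diamond, metastasis). The metastasis lay at 12.06 for type 2 alveolar markers and at -0.24 for macrophage markers.

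Some markers of other cell classes of the lung were also above the range. Among alveolar macrophage markers 5 of 7 were above the range (71.4%, against 11.5% of all genes). Of these, Marco, Siglecf and Ear2 passed the count minimum only through the metastasis. Chil3, a chitinase-like protein, was at 0.303, 0.168 and 2.03 CPM in EMT6-PTR and 388 CPM in the metastasis, and Marco, a scavenger receptor, was at 0 in all 6 primary tumors and 9.41 CPM in the metastasis. Of 4 mesothelial markers 3 were above (Upk3b, Wt1 and Lrrn4, 75.0% of the list), and all 3 passed the count minimum only through the metastasis. Msln, which these tumors expressed, was not above, at 155, 138 and 371 CPM in EMT6-PTR and 270 CPM in the metastasis.

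Vascular genes were higher as a group. Of 11 endothelial markers 10 were above the range (90.9%, against 11.5% of all genes), with summed levels of 258, 236 and 197 CPM in EMT6-PTR and 1238 CPM in the metastasis. Pecam1, an adhesion molecule of all endothelium, was at 60.5, 51.9 and 43.1 CPM in EMT6-PTR and 280 CPM in the metastasis, and Vwf, the platelet-binding factor, was at 4.38, 5.42 and 24.0 CPM and 186 CPM. Emcn, a venous and capillary sialomucin, was the one member that did not follow, at 21.0, 15.8 and 15.8 CPM in EMT6-PTR and 8.38 CPM in the metastasis. Car4, Cldn5 and Gpihbp1, 3 of the 6 lung capillary markers, were also above the range, and 5 of the 6 were without EMT6-PTR replicate 3. Ednrb, another marker of that list, was lower in the metastasis than in every primary tumor but was not called. Its level was 15.3, 13.1 and 12.5 CPM in EMT6-PTR and 7.32 CPM in the metastasis. Among 14 angiogenic ligands and receptors, the receptors Tek, Flt1, Kdr and Flt4 and the Notch ligand Dll4 were above (35.7%, against 11.5% of all genes), and the ligand Angpt2 was below (7.1%, against 2.04%), at 7.41, 9.66 and 12.3 CPM in EMT6-PTR and 2.95 CPM in the metastasis. Without replicate 3, 3 of the 14 were below.

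Markers of liver, kidney, skeletal muscle and heart were also examined, with 11.5% of all genes above the range for comparison. None of 7 hepatocyte genes reached the count minimum in any library, and Alb and Ttr had no count in the metastasis or in EMT6-PTR. Of 3 measured kidney tubule genes 1 (33.3%), Lrp2, an endocytic receptor also found in lung epithelium, was above the range at 12.7 CPM. Lrp2 had no count in any primary tumor and passed the count minimum only through the metastasis. The 1 kidney gene with 10 counts in every library, Slc12a1, was not above, at 13.5, 18.6 and 6.78 CPM in EMT6-PTR and 5.39 CPM in the metastasis. Umod and Kap had no count in the metastasis. None of 11 skeletal muscle markers was above. Their summed CPM was 4982, 9.05 and 6.58 in EMT6-PTR and 3.82 in the metastasis, and Acta1, muscle actin, was at 1648 CPM in EMT6-PTR replicate 1 alone among the treated libraries. Without EMT6-PTR replicate 2, 2 of the 11 were below. Of 5 heart muscle genes Actc1 and Myl7 (40.0%) were above the range at low levels, with Actc1, cardiac actin, at 0.650, 0.168 and 0 CPM in EMT6-PTR and 3.896 CPM in the metastasis, and Myl7, an atrial myosin light chain, at 0.0434, 0 and 0 CPM and 0.433 CPM. Myl7 passed the count minimum only through the metastasis, with 11 counts there and at most 1 in any primary tumor, and neither of the 2 heart genes with 10 counts in every library was above. The heart list's summed level was 217, 143 and 15.9 CPM in EMT6-PTR and 20.5 CPM in the metastasis.

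Keratin genes of simple epithelia were present in the metastasis. Krt8 was at 1674, 1725 and 504.0 CPM in EMT6-PTR and at 731 CPM in the metastasis, and Krt18 at 390, 450 and 73.6 CPM and 212 CPM, so that both lay within the EMT6-PTR range. The milk protein genes Csn2 and Wap had no count in the metastasis or in EMT6-PTR. Cdh1 (E-cadherin) was at 8.80, 9.72 and 3.39 CPM in EMT6-PTR and 136 CPM in the metastasis, and Epcam at 10.5, 4.80 and 8.81 CPM and 51.4 CPM. With Cldn4, Esrp1, Grhl2, Ovol1 and the mesenchymal cadherin Cdh2 they made up the 7 of 15 genes of an epithelial to mesenchymal transition list that were above the range (46.7%, against 11.5% of all genes). With 10 counts required in every library, 2 of 10 were above. Cdh2 was at 1.518, 1.396 and 0.156 CPM in EMT6-PTR and 4.565 CPM in the metastasis. The other mesenchymal genes Vim, Zeb1, Zeb2, Snai1, Snai2, Twist1, Fn1 and S100a4 were not called, and Vim was at 3334, 3813 and 2224 CPM in EMT6-PTR and 2111 CPM in the metastasis. Lung epithelium, whose list sums are given above, also expresses Krt8, Krt18, Cdh1, Epcam and Cldn4, and its part in their values was not tested.

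**Figure D2:**
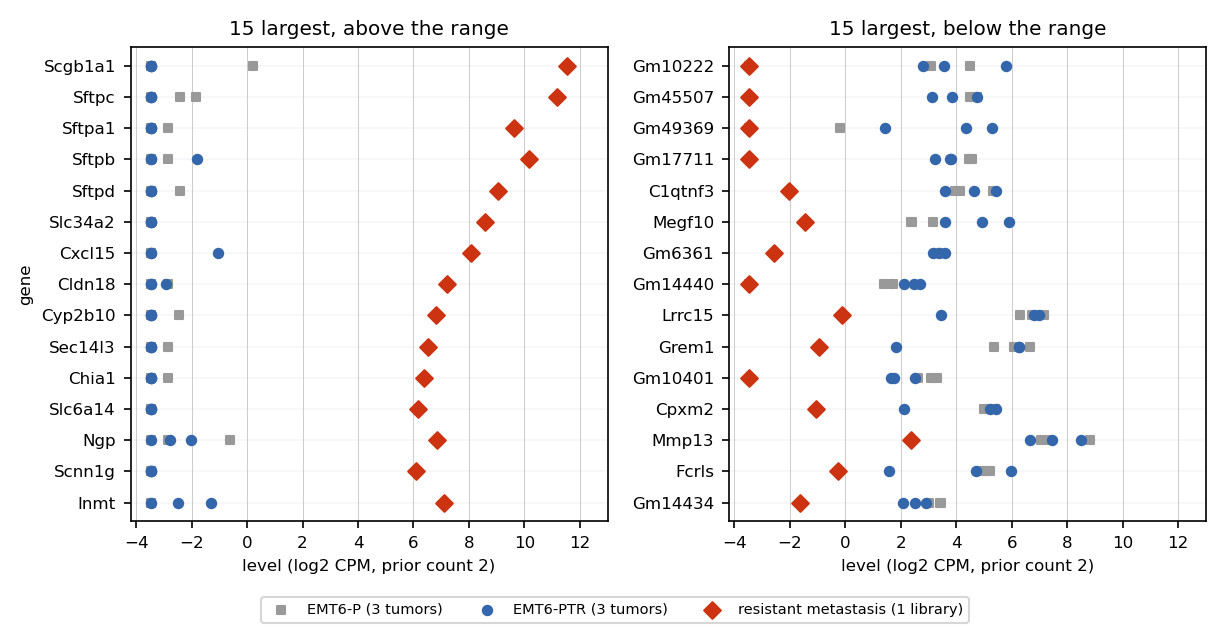
Level in log2 CPM (prior count 2) of the 15 genes with the largest differences above the EMT6-PTR range and the 15 with the largest below it, with 1 point per library. Scgb1a1 reached 2961 CPM in the metastasis and Mmp13 was at 5.04 CPM there, and points at the left edge of each panel are libraries without a count.

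The 15 largest differences above the range, among genes with at least 50 counts in the metastasis, were led by lung epithelial genes. Beyond those named, they were Cldn18 (a tight junction protein), Cxcl15 (the lung chemokine lungkine), Cyp2b10 (a cytochrome P450), Sec14l3, Chia1 (an acidic chitinase), Slc6a14 (an amino acid transporter), Scnn1g (a subunit of the epithelial sodium channel) and Inmt (an indole methyltransferase). Cxcl15 was at 0, 0 and 0.390 CPM in EMT6-PTR and 272 CPM in the metastasis. The remaining member, Ngp, is a granule protein of neutrophil precursors and was at 0, 0.0558 and 0.156 CPM in EMT6-PTR and 115 CPM in the metastasis.

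Of 12 neutrophil genes listed, 11 were measured and these were above the range, with Elane under the count minimum. Ly6g, Camp and Mpo passed that minimum only through the metastasis. The 4 with 10 counts in every library, S100a8, S100a9, Csf3r and Cxcr2, were above. The summed level of the 11 measured genes was 46.9, 47.7 and 36.8 CPM in EMT6-PTR, 25.3 to 61.2 CPM in EMT6-P and 3163 CPM in the metastasis. S100a9, which forms the calprotectin dimer with S100a8, was at 15.3, 18.99 and 11.03 CPM in EMT6-PTR and 1521 CPM in the metastasis, and was the list member with the highest CPM. Retnlg was at 0.520, 0.168 and 1.56 CPM in EMT6-PTR and 471 CPM in the metastasis. Cxcr2, the receptor for Cxcl1 and Cxcl2, was at 2.47, 2.96 and 1.83 CPM and 160 CPM, and Csf3r, the receptor for the granulocyte growth factor, at 18.99, 15.02 and 11.69 CPM and 205 CPM. Mpo and Ly6g were the lowest members in the metastasis, at 0.826 and 2.32 CPM.

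Red cell genes were also higher. All 6 measured erythroid genes were above the range, with sums of 44.2, 379 and 197 CPM in EMT6-PTR and 7666 CPM in the metastasis. Hbb-bs, a beta globin, was at 17.5, 165 and 82.6 CPM in EMT6-PTR and 3740 CPM in the metastasis. The globin genes are near-identical copies, so the division of reads between Hba-a1 and Hba-a2, and between Hbb-bs and Hbb-bt, is uncertain. Of 9 B and plasma cell genes 7 were above (77.8%, against 11.5% of all genes), of which Mzb1 passed the count minimum only through the metastasis. Igkc, the kappa light chain constant region, was at 0.173, 63.3 and 1.25 CPM in EMT6-PTR and 216 CPM in the metastasis.

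T cells and macrophages differed less. Of 11 T cell genes Cd3d and Cd2 were above the range (18.2%, against 11.5% of all genes) and none of the 6 with 10 counts in every library was, and the summed level was 11.1, 31.4 and 11.3 CPM in EMT6-PTR and 47.0 CPM in the metastasis. Without EMT6-PTR replicate 2, which was the highest of the 3, 7 of the 11 were above, where 2498 of all 19002 genes were. Cd8a was at 1.82, 3.63 and 1.17 CPM in EMT6-PTR and 2.79 CPM in the metastasis. Of 7 cytotoxic and NK cell genes only Gzma was above (14.3%, near the 11.5% of all genes), and of 10 macrophage genes none was. Macrophage sums were 3209, 2368 and 2019 CPM in EMT6-PTR and 2437 CPM in the metastasis, and Adgre1, which encodes F4/80, was at 69.8, 78.25 and 19.99 CPM and 19.1 CPM.

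Chemokine ligands, which draw leukocytes along gradients, were above the range for 11 of 24 genes (45.8%), against 11.5% of all genes. Cxcl1, Cxcl2 and Cxcl3, ligands of the neutrophil receptor, were among them. Cxcl2 (chr5:90903871-90905938) was at 9.15, 8.43 and 1.403 CPM in EMT6-PTR, against 12.1, 12.9 and 3.02 CPM in EMT6-P and 803 CPM in the metastasis. Cxcl1 was at 46.7, 35.9 and 5.34 CPM in EMT6-PTR and 505 CPM in the metastasis, and Cxcl3 at 3.08, 8.77 and 1.52 CPM and 63.5 CPM. Ccl3 and Ccl4, which attract monocytes and lymphocytes, reached 199 and 69.8 CPM against at most 4.92 and 6.76 CPM in EMT6-PTR. The others above the range were Ccl2, Ccl6, Ccl17, Ccl20, Ccl22 and Cxcl12. Cxcl9 and Cxcl10, the interferon-induced ligands of CXCR3, lay within the EMT6-PTR range, at 16.8 and 23.4 CPM in the metastasis. The part of the neutrophils in these values was not tested, and the neutrophil list's sum in the same library is given above.

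Il6 and 5 others of a list of 14 genes of the IL6 family and its signaling feedback were above the range (42.9%, against 11.5% of all genes), and none was below. With 10 counts required in every library, 5 of 13 were above. Il6 (chr5:30013114-30019981) was at 2.602, 2.793 and 0.2728 CPM in EMT6-PTR, against 1.32, 0.932 and 1.08 CPM in EMT6-P and 93.7 CPM in the metastasis, which was 49.6-fold the EMT6-PTR mean. Osm, a cytokine of the same family, was at 7.50, 4.80 and 1.95 CPM in EMT6-PTR and 118 CPM in the metastasis. Its receptor chain Osmr and the shared receptor chain Il6st were at 190 and 263 CPM in the metastasis and at most 64.5 and 118 CPM in EMT6-PTR. Socs3, the inhibitor that STAT3 induces, was at 93.4, 92.4 and 42.0 CPM in EMT6-PTR and 596 CPM in the metastasis. Bcl3 was the sixth gene above the range. Of the 8 not called, 6 were higher than in every EMT6-PTR tumor by less than 2-fold, and Clcf1, a cytokine of the family, was lower than in each of them. Of all 19002 genes, 3475 were higher and 4638 lower by less than 2-fold in this way. Stat3 was at 185, 196 and 268 CPM in EMT6-PTR and 401 CPM in the metastasis, less than 2-fold beyond it.

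The promoters of Il6 and of 3 of the chemokine genes are shown because the genes stood above the range together and share a motif. Upper-case letters mark GGGNNTTNCC, a form of the site of NF-kappaB, searched on both strands of the same windows. Overlapping matches were each counted. The positions are chr5:90891115-90891244 (+) for Cxcl1, chr5:90903769-90903898 (+) for Cxcl2, chr5:30012984-30013113 (+) for Il6 and chr1:83116636-83116765 (+) for Ccl20.
Cxcl1: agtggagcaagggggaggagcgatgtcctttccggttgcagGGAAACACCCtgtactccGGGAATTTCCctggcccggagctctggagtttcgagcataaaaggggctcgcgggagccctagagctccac
Cxcl2: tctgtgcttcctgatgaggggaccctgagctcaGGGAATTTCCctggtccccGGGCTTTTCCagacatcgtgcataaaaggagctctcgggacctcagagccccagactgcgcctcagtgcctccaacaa
Il6: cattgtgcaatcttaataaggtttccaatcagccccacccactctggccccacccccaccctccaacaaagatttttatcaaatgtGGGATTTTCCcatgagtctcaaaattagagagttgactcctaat
Ccl20: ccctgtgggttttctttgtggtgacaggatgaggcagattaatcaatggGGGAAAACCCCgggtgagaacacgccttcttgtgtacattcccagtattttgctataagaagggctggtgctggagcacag
Of the 38 chemokine and IL6 family genes, 29 had a window and 9 of these (31.0%) held the motif, against 5.5% of all genes with a window. Among the members above the range, 14 had a window and 6 held it. Cxcl9, Cxcl10 and Ccl9, which were not above the range, held it too.

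**Figure D3:**
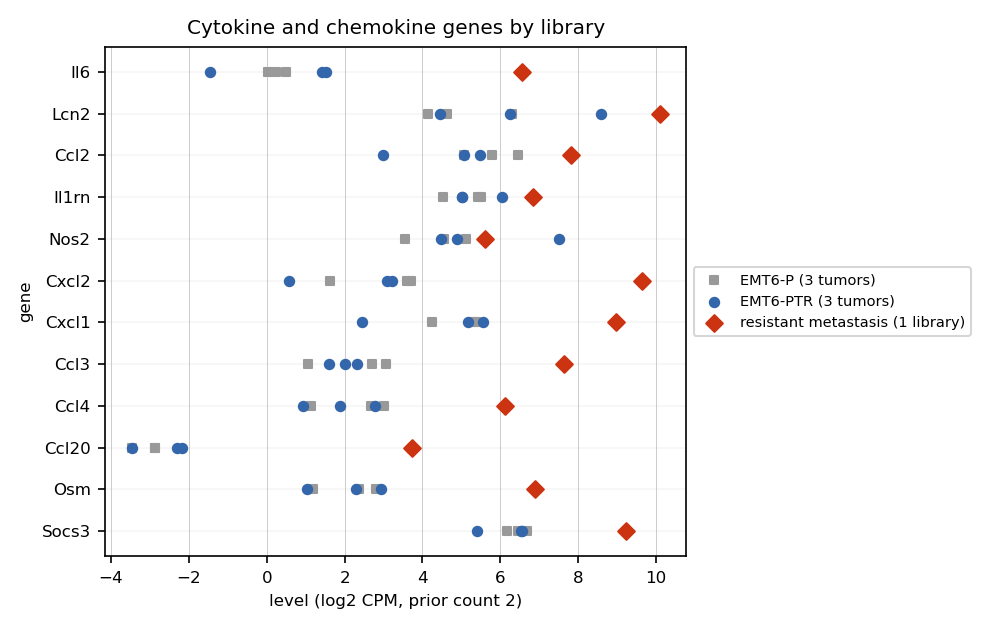
Level in log2 CPM (prior count 2) of cytokine, chemokine and feedback genes, with 1 point per library. The metastasis was highest for each gene shown except Nos2, for which EMT6-PTR replicate 2 was highest at 183 CPM.

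The study's PD-L1 treatment-induced secretome (PTIS) consists of 5 genes, chosen by the study on samples that include these, so that its direction here is not independent evidence. Il6, Lcn2 and Ccl2 were above the range. Lcn2, an iron-sequestering lipocalin, was at 21.7, 383 and 75.9 CPM in EMT6-PTR and 1094 CPM in the metastasis, and Ccl2, the monocyte chemokine, at 33.6, 44.8 and 7.83 CPM and 224 CPM. Il1rn, the IL-1 receptor antagonist, was at 32.1, 65.9 and 32.03 CPM in EMT6-PTR and 114 CPM in the metastasis, above all of them by less than 2-fold. Nos2, the inducible nitric oxide synthase, was at 29.2, 183 and 22.2 CPM in EMT6-PTR and 48.6 CPM in the metastasis. The study's longer list of candidate secreted factors was drawn with the RNA-seq comparison of EMT6-PTR and EMT6-P tumors. Its counts against the EMT6-PTR range are therefore not independent evidence either. Of its 133 measured genes, 27 (20.3%) were above and 7 (5.3%) below, against 11.5% and 2.04% of all genes. Ager, the globin genes and Vwf were among those above. Without EMT6-PTR replicate 3, 63 of the 133 were above, where 3333 of all 19002 genes were. Against all 6 primary tumors 1 was below, and without replicate 1, 11 were. The study's list of secreted factors lower in EMT6-PTR was drawn with the same comparison. Over that list, the median log2 difference from the EMT6-PTR mean was 0.95, 0.86 and -1.65 in replicates 1, 2 and 3. Of its 75 measured genes, 9 (12.0%) were above and 2 (2.7%), Grem1 and Cpxm2, below, shares near those of all genes. Without replicate 3, 29 were below, where 1583 of all 19002 genes were. Without replicate 2, 16 were above, where 2498 of all genes were.

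Interferon genes were not called in either direction. None of 22 type I interferon-stimulated genes was above or below the range, and the list's median difference was -0.55 on the log2 scale. By less than 2-fold, 11 of them were lower than in every EMT6-PTR tumor and 1, Ifit3, was higher. Of all 19002 genes, 4638 were lower and 3475 higher by less than 2-fold in the same way. Without EMT6-PTR replicate 3, 2 of the 22 were below the range, where 1583 of all genes were. Isg15, a ubiquitin-like modifier, was at 24.5, 87.1 and 18.2 CPM in EMT6-PTR and 21.3 CPM in the metastasis, and Oas1a at 33.6, 55.2 and 13.6 CPM and 11.7 CPM. None of 18 genes induced by interferon gamma was called, although the median difference was 0.74. By less than 2-fold, 9 of them were higher than in any EMT6-PTR tumor, as were 3475 of all 19002 genes. Without EMT6-PTR replicate 2, which had the highest summed level of that list, 5 of the 18 were above, where 2498 of all genes were. Tgtp1, an interferon-inducible GTPase, was at 29.7, 146 and 112 CPM in EMT6-PTR and 280 CPM in the metastasis. Of 8 MHC class II genes 7 were higher than in every EMT6-PTR tumor by less than 2-fold, as were 3475 of all 19002 genes. None of the 8 was called. H2-Aa was at 402, 410 and 274 CPM in EMT6-PTR and 692 CPM in the metastasis. No MHC class I gene was called. Cd274, which encodes PD-L1, the target of the antibody, was at 14.3, 34.5 and 10.6 CPM in EMT6-PTR, 10.5 to 21.9 CPM in EMT6-P and 43.7 CPM in the metastasis. Of 12 checkpoint genes only Ctla4 was above the range (8.3%, against 11.5% of all genes), at 0.390, 1.396 and 0.818 CPM in EMT6-PTR and 9.48 CPM in the metastasis. None of the 10 with 10 counts in every library was above. Without replicate 2, 5 of the 12 were above, where 2498 of all genes were.

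**Figure D4:**
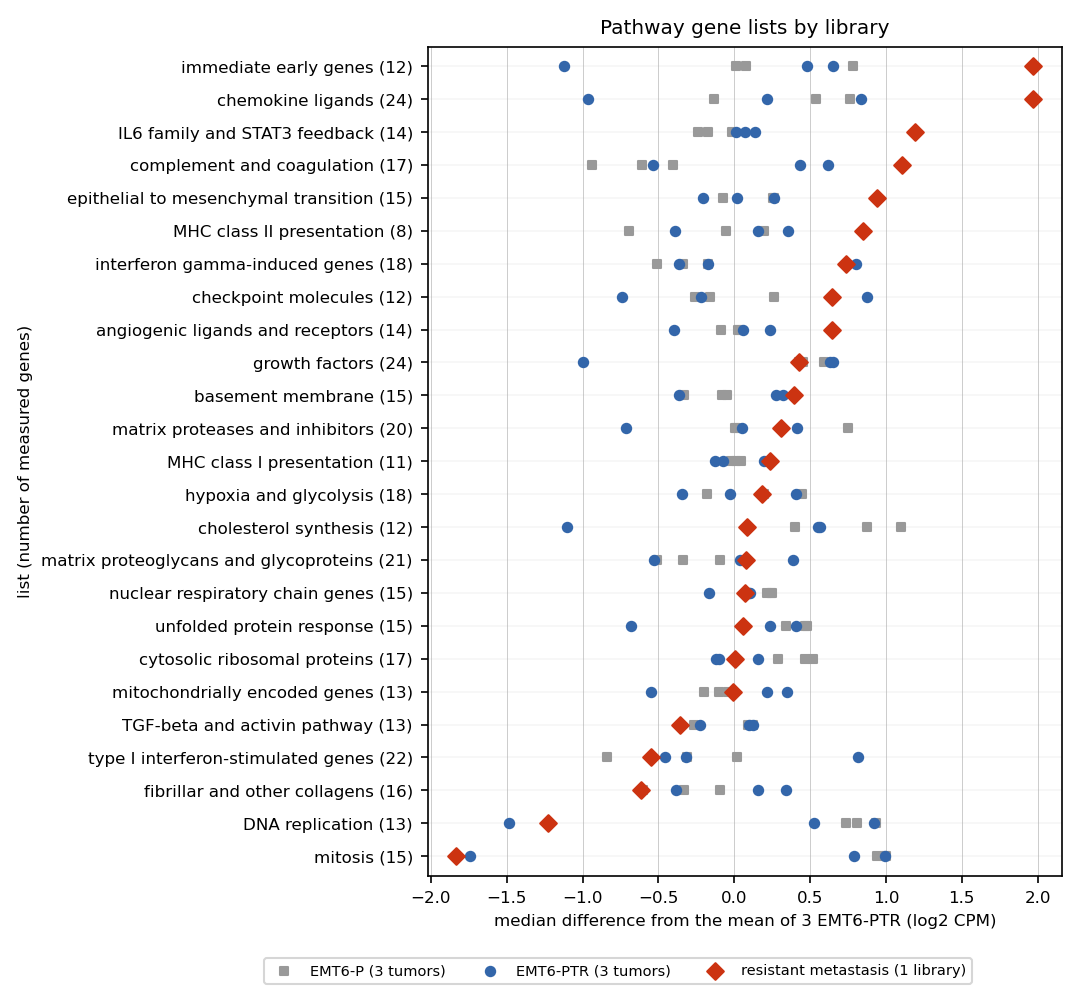
Median over the measured genes of each pathway list of log2 CPM minus the mean of the 3 EMT6-PTR tumors, with 1 point per library. The metastasis lay highest for immediate early genes and chemokine ligands, both at 1.97, and lowest for mitosis genes, at -1.83, beside 1 EMT6-PTR tumor.

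Immediate early genes, transcription factors and regulators that are switched on within minutes of a stimulus or of tissue handling, were above the range for 7 of 12 genes (58.3%, against 11.5% of all genes). Against all 6 primary tumors 5 of the 12 were above, where 10.7% of all genes were. Zfp36, an RNA-binding protein that shortens cytokine messages, was at 57.8, 48.4 and 30.6 CPM in EMT6-PTR and 508 CPM in the metastasis. Fos was at 73.2, 73.2 and 14.7 CPM and 153 CPM, and Junb at 299.7, 243 and 60.9 CPM and 611 CPM. Among coagulation genes F3, the tissue factor that starts clotting, was at 20.5, 36.1 and 27.0 CPM in EMT6-PTR and 357 CPM in the metastasis. F7, F10 and Thbd were also among the 5 of 17 complement and coagulation genes above the range (29.4%, against 11.5% of all genes). Without replicate 3, 8 were above and 2 below, where 3333 and 1583 of all 19002 genes were. Among 24 growth factors the 5 above the range (20.8%, against 11.5% of all genes) included Csf3, which drives granulocyte production, at 4.77, 4.25 and 0.156 CPM in EMT6-PTR and 44.2 CPM in the metastasis. Each of the 5 had under 10 counts in at least 1 library, and none of the 16 growth factors with 10 counts in every library was above. No growth factor was below, and 4 were without replicate 3, where 1583 of all 19002 genes were.

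The 15 mitosis genes were lower in the metastasis and in EMT6-PTR replicate 3 than in the other 5 primary tumors. The same held for 12 of 13 DNA replication genes, all but Gins2, at 41.9, 29.1 and 32.3 CPM in EMT6-PTR and 32.6 CPM in the metastasis. Mki67 was at 240, 211 and 37.9 CPM in EMT6-PTR, 199 to 210 CPM in EMT6-P and 39.9 CPM in the metastasis. The summed level of 15 mitosis genes was 1481, 1289 and 202 CPM in EMT6-PTR, 1344 to 1403 CPM in EMT6-P and 206 CPM in the metastasis. For 13 DNA replication genes the sums were 1109, 826 and 292 CPM in EMT6-PTR, 1009 to 1130 CPM in EMT6-P and 325 CPM in the metastasis. No gene of either list was called against the range of the 3 tumors. Without replicate 3, all 15 mitosis genes and 10 of the 13 replication genes were below the range, where 1583 of all 19002 genes were.

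**Figure D5:**
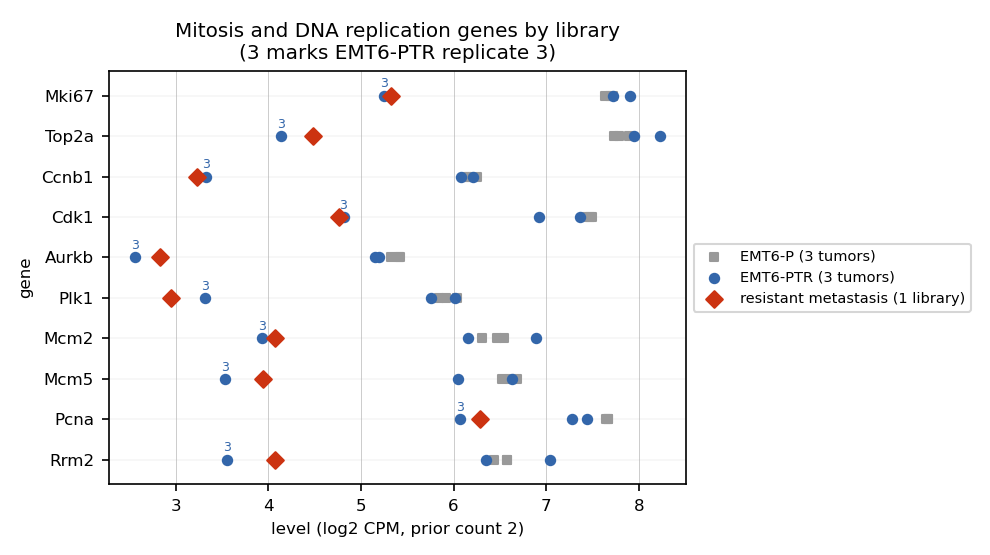
Level in log2 CPM (prior count 2) of mitosis and DNA replication genes, with 1 point per library and EMT6-PTR replicate 3 marked 3. For the 10 genes shown, the metastasis and EMT6-PTR replicate 3 lay under the other 5 libraries, with Mki67 at 39.9 and 37.9 CPM.

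Matrix genes were divided. Mmp13 (chr9:7272514-7283331), a collagenase, was at 176, 359 and 99.99 CPM in EMT6-PTR, 132 to 456 CPM in EMT6-P and 5.04 CPM in the metastasis, lower than in every primary tumor. Lrrc15, a membrane protein of matrix-rich fibroblasts, was at 126, 112 and 10.7 CPM in EMT6-PTR and 0.826 CPM in the metastasis, and Grem1, a BMP antagonist, at 76.5, 76.5 and 3.43 CPM and 0.433 CPM. C1qtnf3, a secreted C1q-related protein, was at 24.9, 43.6 and 12.0 CPM in EMT6-PTR and 0.157 CPM in the metastasis. In all 3 of Mmp13, Lrrc15 and Grem1, EMT6-PTR replicate 3 was the lowest primary tumor. Col10a1, a collagen of hypertrophic cartilage, was at 1.13, 14.5 and 53.4 CPM in EMT6-PTR and 0.157 CPM in the metastasis, and Col8a1 was the other of 16 collagen genes below the range (12.5%, against 2.04% of all genes). None of the 15 with 10 counts in every library was below when the libraries were scaled over such genes alone, where Col8a1 came to lie within 2-fold of the range. Without replicate 3, 6 of the 16 were below and 1 above, and against all 6 primary tumors 1 was below. Col1a1 was at 2979, 3718 and 2747 CPM in EMT6-PTR and 2178 CPM in the metastasis.

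Some other matrix genes stood above the range. Eln, the elastin gene, was at 37.3, 147 and 111 CPM in EMT6-PTR and 588 CPM in the metastasis, and Fbln5, which assembles elastic fibers, at 8.80, 8.43 and 8.30 CPM and 24.4 CPM. They were the 2 of 21 matrix proteoglycans and glycoproteins above the range (9.5%, against 11.5% of all genes). None was below, and without replicate 3, 6 were above and 3 below. Of 15 basement membrane genes 6 were above (40.0%, against 11.5% of all genes) and Nid2 was below (6.7%, against 2.04%). Col4a1, among those above, was at 265, 225 and 142 CPM in EMT6-PTR and 531 CPM in the metastasis. Without replicate 3, 3 of the 15 were below, where 1583 of all 19002 genes were. Timp3, an inhibitor of metalloproteinases, was at 49.3, 55.7 and 22.8 CPM in EMT6-PTR and 407 CPM in the metastasis. It was 1 of 3 proteases and inhibitors above the range among 20 (15%, near the share of all genes), of which 1 was below with all 3 tumors and 4 without replicate 3. Of 12 fibroblast genes only Dpt was above (8.3%, against 11.5% of all genes). Without replicate 3, 4 of the 12 were above and 1 below, where 3333 and 1583 of all 19002 genes were. Dcn, a small proteoglycan, was at 35.8, 105 and 3336 CPM in EMT6-PTR and 871 CPM in the metastasis, and Col3a1 at 945, 2003 and 9063 CPM and 6516 CPM, so for both genes the metastasis lay between replicates 2 and 3. In the TGF-beta list of 13 genes, Inhba, a subunit of activin A, was below at 266, 231 and 46.2 CPM in EMT6-PTR and 17.5 CPM in the metastasis, and Tgfb3 was below as well (15.4%, against 2.04% of all genes). Without replicate 3, 5 of the 13 were below, where 1583 of all 19002 genes were, and against all 6 primary tumors 1 was.

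The remaining genes among the 15 largest differences below the range were Megf10 and Cpxm2, Fcrls, a macrophage receptor, and 8 genes with provisional names. Gm45507, Gm49369, Gm17711, Gm6361, Gm10401 and Gm10222 overlap other annotated genes, and Gm10222, Gm17711 and Gm6361 are annotated as pseudogenes, so the division of their reads between copies is uncertain. Gm14440 and Gm14434 completed the list. Gm45507, for example, is annotated antisense to Bnip3, from which its reads cannot be told apart unless strand was used in counting, which is not given in the sources used here. It was at 14.2, 8.66 and 26.6 CPM in EMT6-PTR and 0 in the metastasis, where Bnip3, a mitophagy receptor induced by hypoxia, was at 280 CPM against 210, 387 and 223 CPM.

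General cellular programs showed few calls. None of 15 unfolded protein response genes, 15 nuclear respiratory chain genes, 17 cytosolic ribosomal protein genes and 12 cholesterol synthesis genes was above or below the range, with median differences of 0.06, 0.07, 0.01 and 0.08 on the log2 scale. Without replicate 3, 4 of the 15 unfolded protein response genes were below, where 1583 of all 19002 genes were. Without replicate 2, 2 of the 15 were above, where 2498 of all genes were. The other 3 lists had no call without either library. Of 18 hypoxia and glycolysis genes only Ankrd37 was above (5.6%, against 11.5% of all genes). Of 62 lists with a measured gene, 20 had a median at least 2-fold above the range of the 3 EMT6-PTR medians, and none had one at least 2-fold below it.

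Genes that reached the count minimum only through the metastasis were selected for being high there, so the counts of lists were also taken over the 13944 genes with 10 counts in every library, scaled over these genes alone, of which 754 were above and 194 below. Of the lung lists, 2 of 2 type 2, 3 of 4 type 1, 1 of 1 club and 3 of 3 ciliated cell genes were then above, as were 10 of 11 endothelial genes. The counts were 1 of 2 for alveolar macrophages, 2 of 5 for lung capillaries and 4 of 4 for erythroid genes. For B and plasma cells 1 of 1 was above, and for mesothelium 0 of 1. Of 20 chemokine ligands 8 were above, and of 12 immediate early genes 8. Of 13 basement membrane genes 4 were above and 1 below, and of 16 complement and coagulation genes 5 were above. Of the study's candidate secreted factors 17 of 96 were above and 3 below, and of its secreted factors lower in EMT6-PTR 3 of 50 were above and 2 below.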

How the data were processed

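RNA of the metastasis and of the 3 primary tumors in each arm had been sequenced as stranded poly(A) libraries. The authors aligned reads with STAR 2.6.0a to GRCm38 (FastQC 0.11.5 for quality) and deposited expected counts per gene from RSEM 1.3.1, before filtering or normalization. These expected counts (estimated counts) were rounded. Genes with at least 10 counts in at least 1 library were kept (19002), scaled by the upper quartile in edgeR 4.0.16 (R 4.3.3), and expressed as CPM and as log2 CPM with a prior count of 2. RSEM divides reads between overlapping or similar genes, so values of copies are uncertain.

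With 1 metastasis library no test was made. The metastasis was placed against the range of the 3 EMT6-PTR libraries, with 2-fold beyond it as the rule, and differences are log2 CPM minus the EMT6-PTR mean. The rule was also run on simulated counts, from which no result is reported here. Nothing in the sources says whether libraries came from separate litters or batches.

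Named genes were the 15 largest differences in each direction (at least 50 counts in the metastasis, or in each EMT6-PTR library), the first 3 genes of each of 63 lists and up to 3 members furthest beyond the range, the PTIS genes and the most abundant gene per library. Further list members were added as examples. Members and lists were chosen with earlier results of these data known. Of 757 listed genes, 755 matched the table. Alternatives covered scaling (TMM, DESeq2 1.42.0 size factors, total counts, scaling without CT010467.1), prior count, filter, reference, range, fold and each EMT6-PTR library left out. Positions are from GENCODE annotation of GRCm38 and promoters from RefSeq.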

Additional observations from a re-analysis of the deposited data

How the results depend on the processing

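The counts of genes above and below the EMT6-PTR range stayed within 1.5 times their reported values under TMM scaling, DESeq2 size factors, total counts, scaling without CT010467.1, a prior count of 0.5, no filter and the log2 of the mean CPM as reference. With 10 counts required in every library, which removes genes without a count in either group, 754 genes were above and 194 below. A 4-fold rule gave 1275 and 69, and the range of all 6 primary tumors gave 242 below. Leaving out 1 EMT6-PTR library at a time gave 2498 to 3333 genes above and 534 to 1583 below, and both highest values came without replicate 3. The median difference of the heart muscle list was 2.35 over 5 genes and -1.19 over the 2 that had 10 counts in every library. No other list median that stood 2-fold beyond the range, and no named gene called above or below, changed sign. With 1 metastasis library, its spread is unknown, and differences of genes at 0 in EMT6-PTR depend on the prior count. No paired analysis was possible because the metastasis carries no replicate number and no result comes from a test.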

Other observations

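Markers of several smaller cell classes were above the EMT6-PTR range, which 11.5% of all genes were. Of 3 measured mast cell markers Kit and Mcpt4 were above, with Kit, the receptor for stem cell factor, at 4.94, 7.54 and 3.04 CPM in EMT6-PTR and 33.5 CPM in the metastasis. Tpsb2, a mast cell tryptase, was at 0.303, 0.335 and 0.273 CPM in EMT6-PTR and 0.236 CPM in the metastasis, and Cpa3, Cma1, Fcer1a and Ms4a2 were under the count minimum. Of 6 dendritic cell markers Flt3 and Clec9a were above (33.3%), at 2.24 and 3.62 CPM in the metastasis. Of 5 lymphatic endothelium markers Lyve1, Flt4, Mmrn1 and Reln were above (80.0%), with a median difference over the list of 2.54 on the log2 scale. Both of those with 10 counts in every library were above (Lyve1 and Flt4). Under TMM scaling and under total counts 3 of the 5 were above, and without a filter 2 were. Lyve1, a hyaluronan receptor of lymphatic vessels and of some macrophages, was at 7.198, 8.936 and 3.351 CPM in EMT6-PTR and 153 CPM in the metastasis, while Prox1, the transcription factor that defines lymphatic endothelium, was at 0.650, 0.447 and 0.117 CPM and 0.236 CPM. Of 9 smooth muscle and pericyte genes only Myh11 (11.1%) was above, a share near that of all genes, at 3.82, 2.90 and 1.09 CPM in EMT6-PTR and 13.4 CPM in the metastasis. Acta2, smooth muscle actin, was at 591, 663 and 54.0 CPM in EMT6-PTR and 66.7 CPM in the metastasis. Without EMT6-PTR replicate 1, 3 of the 9 were above, and without replicate 3, 3 were below.

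Icam1, an adhesion molecule for leukocytes, was at 28.0, 18.0 and 8.65 CPM in EMT6-PTR and 738 CPM in the metastasis, and it is a member of the study's list of secreted factors lower in EMT6-PTR. Serpina3n, a serine protease inhibitor of the acute phase response, was at 12.0, 4.36 and 33.0 CPM in EMT6-PTR and 541 CPM in the metastasis. Both were chosen after their values were seen. By chromosome, among genes with a mean of at least 10 counts per library, the median difference ran from -0.16 on the X chromosome (521 genes) to 0.11 on chromosome 11 (1302 genes).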
